A study of Homo sapiens with 2 samples.

Results

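Protein-coding promoters that were listed as open after NR2E3 depletion, and were not listed at the same place in the control library, were described by FAIRE-seq in HepG2 cells. They were chosen as the peaks of the NR2E3-depleted-specific list that the deposited annotation classed as promoter-TSS at a protein-coding gene. This gave 2495 peaks at 2408 genes, out of 25555 NR2E3-depleted-specific peaks and 56159 peaks in 3 lists. HepG2 is an established human liver cancer cell line. Control cells carried lentiviral particles with a scrambled small hairpin RNA (shRNA) and NR2E3-depleted cells carried lentiviral particles with an shRNA targeting NR2E3, a nuclear receptor. Each group had 1 library, so no value below has a replicate check and no test between conditions was possible. The comparison asks at which promoters open chromatin differs when NR2E3 is reduced. Ranges in parentheses after a share, a difference or a tag number are 95% intervals for counting error alone, and neighbouring peaks are not independent.

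Formaldehyde crosslinks histones to DNA more readily than most other proteins, so that after phenol extraction DNA free of nucleosomes stays in solution, and FAIRE (formaldehyde-assisted isolation of regulatory elements) sequences that DNA. Promoters of genes used in most cells often lie in CpG-rich DNA and carry GC boxes, which bind Sp1 and KLF factors, and CCAAT boxes, which bind the trimeric factor NFY. NR2E3 belongs to the NR2E group of orphan nuclear receptors, is best known from photoreceptors, and binds DNA sites that hold AAGTCA. FAIRE of a cell population does not tell apart a promoter that is open in more cells from one that is more open in each cell.

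Peak scores were whole multiples of 0.507 in the NR2E3-depleted-specific list and of 0.407 in the control-specific and common lists, which was read as the score of 1 sequenced tag. If scores are per 10 M (mega) tags, which was not stated, the NR2E3-depleted library had 19.7 M tags and the control library 24.6 M. Scores of common peaks thus stood on the control scale, and their levels in NR2E3-depleted cells were not analysed here. Of 13 hepatocyte genes checked against the cell label, 7 had a common promoter peak and 12 had a peak of some class. None of the 13 had an NR2E3-depleted-specific promoter peak. NR2E3 itself had no promoter peak in any list, and FAIRE does not measure its depletion.

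The DNA under these peaks is illustrated by promoters of different roles and positions, in hg38 and on the plus strand. Bases inside protein-coding exons of GENCODE are left out. Capitals mark GC boxes (GGGCGG or its complement) and CCAAT boxes (CCAAT or its complement). The KIF11 window, at chr10:92592852-92593129 just upstream of a plus-strand gene for a spindle motor, held 1 GC box and 1 CCAAT box. The SREBF2 window, at chr22:41832755-41833054 upstream of the gene for the sterol-responsive factor SREBP2, held 1 CCAAT box and no GC box. The window of HDAC1, a histone deacetylase, at chr1:32291788-32292082 held 3 GC boxes, of which 2 overlap, and 1 CCAAT box. NDUFB5, a complex I subunit gene, shares chr3:179604650-179604786 with the start of MRPL47 on the other strand, and the window held 2 CCAAT boxes.
KIF11: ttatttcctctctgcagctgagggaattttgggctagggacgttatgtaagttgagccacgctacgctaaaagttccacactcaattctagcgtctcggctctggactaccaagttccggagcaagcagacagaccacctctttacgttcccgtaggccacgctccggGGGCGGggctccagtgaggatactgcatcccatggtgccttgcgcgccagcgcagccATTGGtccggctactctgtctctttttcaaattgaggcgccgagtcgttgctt
SREBF2: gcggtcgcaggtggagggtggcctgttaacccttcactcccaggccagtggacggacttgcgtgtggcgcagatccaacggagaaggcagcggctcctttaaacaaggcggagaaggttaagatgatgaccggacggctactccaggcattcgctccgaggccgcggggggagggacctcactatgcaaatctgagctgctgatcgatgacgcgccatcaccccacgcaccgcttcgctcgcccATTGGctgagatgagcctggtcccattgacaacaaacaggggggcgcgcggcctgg
HDAC1: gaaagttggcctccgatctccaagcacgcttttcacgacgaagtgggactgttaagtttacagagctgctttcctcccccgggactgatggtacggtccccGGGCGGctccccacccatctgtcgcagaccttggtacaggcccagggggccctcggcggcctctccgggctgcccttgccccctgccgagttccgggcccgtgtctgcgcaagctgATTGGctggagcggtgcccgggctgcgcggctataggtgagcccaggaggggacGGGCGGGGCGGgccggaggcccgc
NDUFB5: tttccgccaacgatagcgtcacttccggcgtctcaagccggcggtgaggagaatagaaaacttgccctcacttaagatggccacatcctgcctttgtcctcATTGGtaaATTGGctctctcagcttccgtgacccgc

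Peaks of both libraries beside each other are shown for a pair of minus-strand genes. At NAPA, the gene for an adaptor of membrane fusion, the NR2E3-depleted-specific window chr19:47515064-47515337 touches the TSS and the control-specific window chr19:47515349-47515648 lies upstream of it. At JAG1, the gene for a Notch ligand, the NR2E3-depleted-specific window chr20:10674758-10675057 lies upstream of the common window chr20:10674000-10674247. Each NAPA window held 2 GC boxes and 1 CCAAT box. The upstream JAG1 window held none of these boxes, whereas the common JAG1 window at the TSS held 2 GC boxes.
NAPA, NR2E3-depleted-specific: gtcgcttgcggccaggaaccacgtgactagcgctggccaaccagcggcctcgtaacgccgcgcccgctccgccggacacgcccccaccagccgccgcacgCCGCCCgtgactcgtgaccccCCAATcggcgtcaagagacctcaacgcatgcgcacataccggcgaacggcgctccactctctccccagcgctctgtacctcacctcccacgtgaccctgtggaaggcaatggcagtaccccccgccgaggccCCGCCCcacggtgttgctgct
NAPA, control-specific: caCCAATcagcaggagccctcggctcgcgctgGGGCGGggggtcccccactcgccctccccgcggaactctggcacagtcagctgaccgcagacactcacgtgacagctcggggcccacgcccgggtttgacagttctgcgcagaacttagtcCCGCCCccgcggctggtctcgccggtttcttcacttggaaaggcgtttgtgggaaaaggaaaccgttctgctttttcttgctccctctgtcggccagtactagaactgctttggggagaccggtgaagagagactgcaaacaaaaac
JAG1, NR2E3-depleted-specific: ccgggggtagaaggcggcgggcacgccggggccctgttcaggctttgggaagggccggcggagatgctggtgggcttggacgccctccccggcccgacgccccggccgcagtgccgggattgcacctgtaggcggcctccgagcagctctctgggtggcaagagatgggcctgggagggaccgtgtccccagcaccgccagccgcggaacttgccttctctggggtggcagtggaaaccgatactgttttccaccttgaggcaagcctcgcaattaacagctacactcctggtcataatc
JAG1, common: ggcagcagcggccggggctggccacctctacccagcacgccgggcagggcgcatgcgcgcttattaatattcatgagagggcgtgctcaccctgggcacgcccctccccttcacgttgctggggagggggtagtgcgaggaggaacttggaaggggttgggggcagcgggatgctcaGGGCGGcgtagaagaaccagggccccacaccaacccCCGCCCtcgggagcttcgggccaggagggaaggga

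Most of the genes had promoter peaks in the NR2E3-depleted-specific list alone. These were 2157 of the 2408 genes (89.6%, 88.3% to 90.8%), with 2228 peaks. A further 160 genes also had a common promoter peak (6.64%, 5.68% to 7.71%), 81 also had a control-specific one (3.36%, 2.68% to 4.16%), and 10 had both. Against 19970 protein-coding genes in RefSeq, 12% had an NR2E3-depleted-specific promoter peak and 10.7% had one in that list alone, whereas 15.1% had a common and 3.76% a control-specific promoter peak. Belonging to this list is what chose the genes, so the 12% is a background for the gene groups and not a result. Of the genes found in this list alone, 1415 (65.6%, 63.6% to 67.6%) had no peak of any class in the other 2 lists. Outside promoters, 516 of the 2157 genes had a control-specific peak and 469 a common peak.

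The highest scores among genes of this list alone belonged to genes of unlike functions. PGK1, a glycolytic kinase on chromosome X, stood apart with a score of 30.4, or 60 tags (45.8 to 77.2), at -224 bp. PGK1 promoter DNA is often used in lentiviral vectors, and the part of vector copies in this score was not tested. A score of 15.7, or 31 tags, was shared by 4 genes. They were IREB2, which encodes an iron-regulatory RNA-binding protein, MAGI3, which encodes a junctional scaffold, SLC25A28, which encodes the mitochondrial iron carrier mitoferrin 2, and STAT2, a transducer of interferon signals. ARL3, a GTPase of cilia, had a score of 15.2 at -35 bp, and KIF11 had 14.7 at -128 bp. KHSRP, an RNA-binding protein of splicing and mRNA decay, and PES1, a ribosome biogenesis factor, had 14.2 each, at -449 bp and -251 bp. Apart from PGK1, the intervals of these tag numbers overlapped each other, so that their order is within counting error.

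Scores of the promoter peaks were low and narrow in range. The median was 7.1, which is 14 tags (7.65 to 23.5 for a single peak at the median), with quartiles of 6.08 and 8.11 and a range from 4.56 to 30.4. The other NR2E3-depleted-specific peaks had a median of 6.08, or 12 tags. Peaks at genes of this list alone had a median of 14 tags, and those at genes with another promoter peak had 13 tags. Only 208 promoter peaks (8.34%) reached 20 tags. Common and control-specific promoter peaks, on the control scale, had medians of 17 and 15 tags and a minimum of 11, against a minimum of 9 here. Tags are not scaled to the depth of a library, whereas scores are if they are per 10 M tags. In scores the medians were 6.91 and 6.1 and the minimum was 4.47 for both, against a median of 7.1 and a minimum of 4.56 here. At least 12 tags were reached by 85.9% of the NR2E3-depleted-specific promoter peaks, 99.7% of common and 99.9% of control-specific ones. The floor here was thus lower in tags but not in scores, and its part in the list was not tested. Stronger peaks were more often CpG-rich, which here means at least 50% GC and an observed to expected CpG ratio of at least 0.6. The CpG-rich share was 68.5% (63.3% to 73.4%) at 10 or 11 tags, 78.7% (74.9% to 82.2%) at 14 or 15 tags, and 89.9% (85.0% to 93.6%) at 20 tags or more. The share of genes' peaks found in this list alone moved less with the tag number, from 87.6% (83.6% to 90.9%) at 10 or 11 tags to 91.5% (88.9% to 93.7%) at 16 to 19 tags, and it was 88.5% (83.3% to 92.5%) above that.

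**Figure D1:**
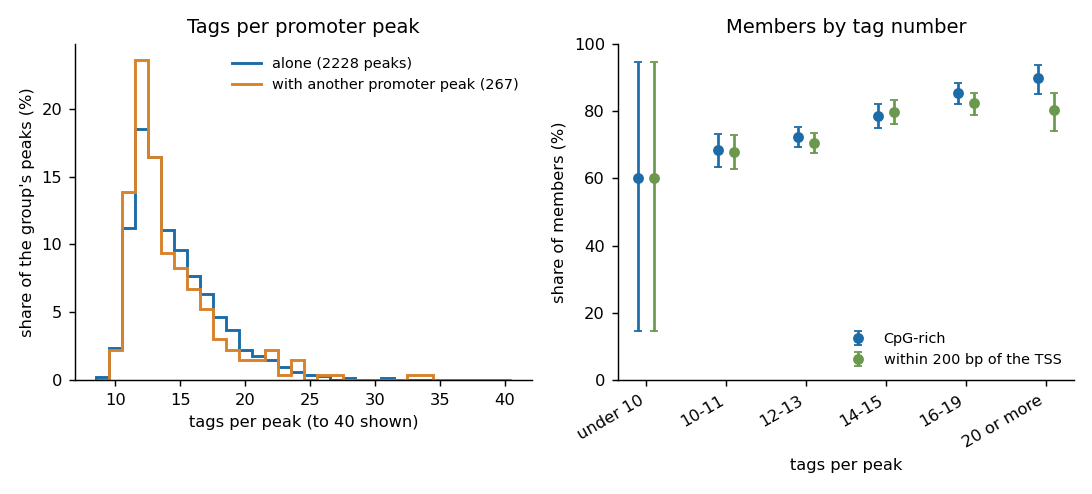
The left panel plots the share of peaks (y, %) against tags per peak (x) for genes of the NR2E3-depleted-specific list alone and for genes with another promoter peak, and the right panel plots the share of peaks that were CpG-rich or within 200 bp of the TSS (y, %) by tag number (x), with 95% exact binomial intervals. Both histograms have their maximum at 12 tags, and the CpG-rich share rose from 68.5% at 10 or 11 tags to 89.9% at 20 tags or more.

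Peaks sat next to the TSS where the gene had no other promoter peak. For genes of this list alone the median distance of the peak centre was -82 bp, with 79.3% of peaks within 200 bp of the TSS and 83.8% upstream of it. For genes with another promoter peak 43.8% lay within 200 bp, which is 35.4 points fewer (29.0 to 41.7). Common promoter peaks lay within 200 bp in 76.9% of cases and control-specific ones in 59.4%. More than 500 bp upstream were 7.18% of peaks of genes in this list alone, against 36.5% of peaks of genes with a common promoter peak and 20% of those with a control-specific one. The lists themselves set part of this pattern, because no promoter peak came nearer than 302 bp to a common peak or 303 bp to a control-specific peak, centre to centre, with every peak 300 bp wide. A gene whose TSS was covered by a common peak could therefore have an NR2E3-depleted-specific peak only beside it or at another TSS.

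**Figure D2:**
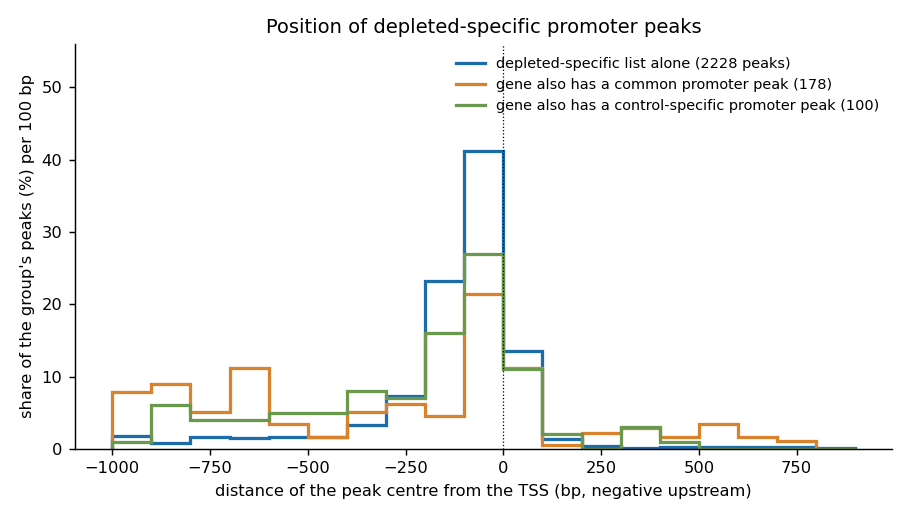
The share of peaks per 100 bp (y, %) is plotted against the distance of the peak centre from the TSS (x, bp, negative upstream) for genes of the NR2E3-depleted-specific list alone (2228 peaks), genes that also have a common promoter peak (178 peaks) and genes that also have a control-specific one (100 peaks). The line of genes in this list alone has its maximum just upstream of the TSS, where 41.2% of its peaks lie between -100 bp and 0, and the line of genes with a common peak has a further rise between -1000 bp and -600 bp.

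Of the 178 peaks at genes with a common promoter peak, including genes that had both others, 79 (44.4%) shared the annotated TSS with it, and 62 of these 79 lay farther from the TSS than the common peak (78.5%, 67.8% to 86.9%). The other peaks were annotated to another TSS of the gene. JAG1 is of the flanking kind, with an NR2E3-depleted-specific peak of score 10.6, or 21 tags, at -909 bp and a common peak at -99 bp. NFYC, a subunit of NFY, is of the other kind, with a peak of score 9.63 at -108 bp that lay 17340 bp from its common peak. SDR39U1, an oxidoreductase gene on chromosome 14, had a score of 16.7 at 531 bp beside a common peak at -17 bp. DCAF11, a substrate receptor of the CUL4 ubiquitin ligase on the same chromosome, was the reverse, with the highest score of this group, 23.8 or 47 tags (34.5 to 62.5), at -15 bp and a common peak at -711 bp. C1orf109, TPRA1 and ZRANB3, a fork-remodelling translocase, had a score of 12.2 each, at -30, -64 and -94 bp.

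Genes with a control-specific promoter peak had a peak of each library at different places. Of 100 peaks at such genes, 73 (73%, 63.2% to 81.4%) lay within 1000 bp of a control-specific peak, with a median of 570 bp over all 100. The split by gene itself places these peaks together, because promoter peaks of 1 TSS lie within about 1000 bp of it. Where the TSS was shared, 28 of 53 NR2E3-depleted-specific peaks lay farther from it than the control-specific peak (52.8%, 38.6% to 66.7%) and 25 lay nearer, so that neither order was more frequent beyond counting error. At PHF14, which encodes a PHD finger protein, the NR2E3-depleted-specific peak had a score of 17.2 (34 tags) at -571 bp and the control-specific peak had 5.69 (14 tags) at -125 bp. At HINT2, a mitochondrial hydrolase gene, the places were the other way round, at -27 bp with 13.7 and at -445 bp with 8.54. NAPA had 13.2 at -125 bp against 10.2 at -436 bp. USP48, a ubiquitin-specific protease gene, had 12.2 at -455 bp against 6.51 at -142 bp. EPB41L2, which encodes a membrane skeleton protein, had 11.2 at -16 bp of a TSS far from the control-specific peak at 86 bp of another TSS. A tag adds a different score in the 2 lists, and whether scores are scaled to depth was not stated. The scores are therefore given side by side without comparison.

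Among the 2408 genes, 83 had more than 1 peak in the list, and 3 had at least 3. SEPTIN9, a cytoskeletal GTPase gene with several start sites, had 4 peaks with scores from 6.08 to 7.1, at -887 and -50 bp of its first start and at -286 and 10 bp of 2 others, and also 2 common promoter peaks elsewhere in the gene. LZTS3 had 3 peaks with scores of 5.07, 6.08 and 6.59 at -47, -316 and -950 bp, of which the first 2 overlap. RNF19A, a RING ubiquitin ligase gene, had 3 peaks with scores from 5.58 to 6.08 at 2 start sites. Peaks of 1 gene share their surroundings and are not separate observations of it. The promoter class ended near -1000 bp, with C1orf195 and SLC2A4 just inside at -997 bp and a further peak of SPATA1 just outside at -1005 bp, classed as intronic. Downstream the class was not a fixed distance from the listed TSS, since the last member, CCT4, was at 803 bp while a peak of MLH3 at 108 bp was classed as intronic. In 210 of 2476 peaks whose promoter accession matched RefSeq, the accession belonged to another gene than the one listed as nearest, a protein-coding gene in 163 cases and a non-coding one in 47.

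The DNA of these promoters was mostly CpG-rich. This held for 77.4% of all the peaks (75.7% to 79.1%), for 81.1% of those at genes in this list alone and for 46.8% of those at genes with another promoter peak, a difference of 34.3 points (27.9 to 40.6). Common promoter peaks had 80.4% and control-specific ones 55.3%. In 15811 RefSeq promoters of the same length, from 250 bases before to 50 after the start, the share was 62.1%, so the peaks of genes in this list alone exceeded it by 19.1 points (17.2 to 20.8). Promoter sequences were at hand for these 15811 of the 19970 protein-coding genes only. They are called all promoters below. Median GC content was 65% for genes in this list alone, 55.7% for genes with another promoter peak and 62.7% for all promoters. CpG content followed position, with 89.3% of peaks CpG-rich between -100 bp and 0 and 19.1% (11.8% to 28.6%) between -1000 and -800 bp. Within 100 bp upstream, 90.5% of peaks were CpG-rich at genes in this list alone and 65.8% at genes with a common promoter peak.

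Motifs were searched by exact letters on both strands of the 300 bases. The GC box GGGCGG of Sp1 was in 69.6% of peaks at genes of this list alone (67.6% to 71.5%), in 42.3% of peaks at genes with another promoter peak, in 66.1% of common and 47.3% of control-specific promoter peaks and in 57.4% of all promoters. For genes of this list alone the excess over common promoter peaks was 3.47 points (0.901 to 6.01). Over all the NR2E3-depleted-specific promoter peaks the share was 66.7%, a difference of 0.552 points (-1.96 to 3.06) from common promoter peaks. CCAAT boxes were in 41.9% of peaks at genes of this list alone, against 50.8% of common promoter peaks, a difference of -8.91 points (-11.6 to -6.18), and 5.89 points above the 36.0% of all promoters (3.70 to 8.10). The KLF forms CCACGCCC and CCACACCC were in 9.96%, against 11.1% of common promoter peaks and 9.77% of all promoters, with intervals of both differences that include 0. ETS sites (CCGGAAG) were in 18.9%, between the 14% of all promoters and the 22.1% of common promoter peaks. NRF1 sites (GCGCATGC) were in 6.19%, against 4.14% of all promoters and 6.72% of common promoter peaks. TATA boxes (TATAAA) were in 4.22%, below the 9.92% of all promoters and the 5.92% of common promoter peaks. The letters AAGTCA was in 9.07% of peaks at genes of this list alone, in 13.1% of those at genes with another promoter peak, in 8.31% of common and 13.2% of control-specific promoter peaks, and in 10.2% of all promoters. The E-box CACGTG was in 10.3%, which is 1.78 points above the 8.54% of all promoters (0.467 to 3.18). The shares for YY1 (AAGATGG), CRE (TGACGTCA) and AP-1 (TGACTCA or TGAGTCA) were 7.23%, 3.14% and 3.46%, with intervals of the differences from all promoters that include 0. None of these motifs contains another, and a match of letters is not a bound site. Over all the NR2E3-depleted-specific promoter peaks, CCAAT boxes were in 39.0% at 10 or 11 tags, 36.1% at 12 or 13 and 53.8% at 20 or more. GC boxes were in 61.6%, 62.5% and 76.0% of the same peaks. The part of peak strength in the differences from common promoter peaks was not tested.

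**Figure D3:**
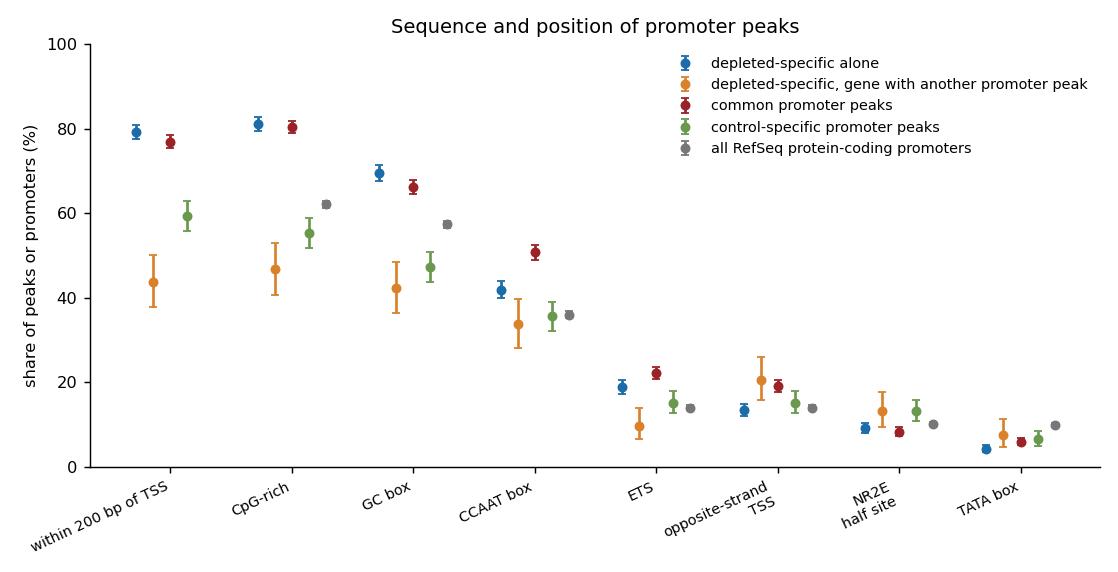
Shares (y, %) with 95% exact binomial intervals are plotted for position, CpG content, an opposite-strand TSS and 5 motifs (x) in peaks of genes in the NR2E3-depleted-specific list alone, peaks of genes with another promoter peak, common promoter peaks, control-specific promoter peaks and all RefSeq protein-coding promoters, the last without a value for position. The RefSeq promoters are those of the 15811 genes with a sequence at hand. Peaks of genes in this list alone lie near common promoter peaks for CpG content (81.1% and 80.4%) and below them for CCAAT boxes (41.9% and 50.8%).

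Divergent promoters serve a gene on each strand. A protein-coding TSS on the other strand lay within 1000 bp at 14.2% of the peaks (12.9% to 15.7%), against 14% of all promoters and 19% of common promoter peaks. Starts on either side of the annotated TSS were counted, so the share is not of divergent promoters alone. The share was 13.5% for genes in this list alone, a difference of -5.53 points (-7.52 to -3.51) from common promoter peaks, and 20.6% for genes with another promoter peak. NDUFB5 and MRPL47 are a divergent pair, and the list names only NDUFB5. With genes of any type counted, the share of the peaks was 34.4%, against 29.3% of all promoters, a difference of 5.04 points (3.04 to 7.07).

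By chromosome the genes were spread more evenly than genes with a common promoter peak. On the autosomes the share of protein-coding genes with an NR2E3-depleted-specific promoter peak ran from 7.53% (chromosome 21) to 14.3% (chromosome 6). Chromosomes 2, 6, 14, 16, 17 and 20, where peaks of all 3 lists are dense, had 13.0% (12.2% to 14%) and the other autosomes 12% (11.5% to 12.6%). For common promoter peaks the same shares were 26.2% and 11.5%, and for control-specific ones 6.42% and 2.91%. These chromosomes held 760 of the 2495 peaks (30.5%), but 16089 of the 23060 other NR2E3-depleted-specific peaks and 67.0% of the peaks at genes with another promoter peak. Genes in this list alone made up 10.0% of genes on the dense chromosomes and 11.4% on the other autosomes. The part of this density in the split was not tested. On chromosome X 40 genes (4.72%, 3.39% to 6.37%) had an NR2E3-depleted-specific promoter peak, all in this list alone. A common one was at 4 genes (0.472%) and a control-specific one at 2 (0.236%). Over all classes, chromosome X held 88 NR2E3-depleted-specific, 10 common and 15 control-specific peaks, or 0.344%, 0.0696% and 0.0924% of each list. Outside protein-coding promoters there were 48, 6 and 13, so the higher number was not limited to these promoters. The 40 genes include OGT, which encodes the enzyme that adds O-linked N-acetylglucosamine (score 7.6 at -149 bp), and the histone methyltransferase gene SUV39H1 (7.6 at -160 bp). TAF1, a TFIID subunit (6.59 at -323 bp), and TFE3, a factor of lysosome genes (8.62 at -439 bp), are also among them. The median of the promoter peaks on chromosome X was 12.5 tags.

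**Figure D4:**
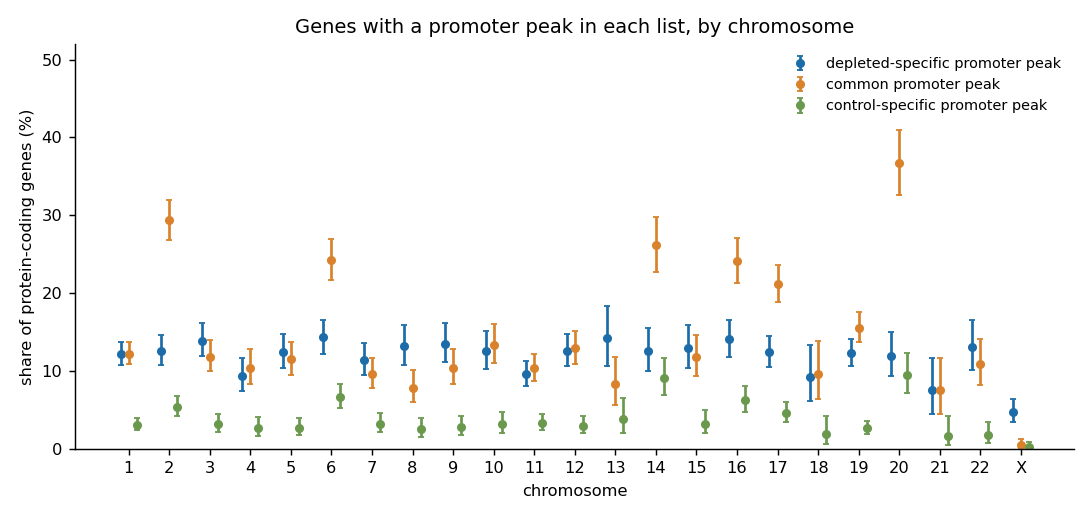
The share of protein-coding genes (y, %) with a promoter peak in the NR2E3-depleted-specific, common and control-specific lists is plotted by chromosome (x), with 95% exact binomial intervals. The NR2E3-depleted-specific shares lie between 7.53% and 14.3% on the autosomes, whereas the common shares rise to 36.7% on chromosome 20, and chromosome X is lowest in all 3 lists.

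Gene classes were compared with the 12% of all protein-coding genes. Of 52 classes, 36 had a higher share of genes with an NR2E3-depleted-specific promoter peak, 12 with an interval wholly above 12% and 5 with an interval wholly below. In 39 classes the share with a common promoter peak was higher still. Classes were set by gene symbols, so a few partner proteins are counted with each. No test of enrichment was made.

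Among energy and mitochondrial genes, 2 classes had intervals above the 12% of all genes and 3 had intervals that include it. Cytochrome c oxidase, complex III and ATP synthase genes had 14 of 56 (25%, 14.4% to 38.4%), of which 13 were in this list alone. They include COX17, a copper chaperone (score 9.63 at -24 bp), COX7C (9.13 at -51 bp), COX5A (8.62 at -154 bp) and the complex III gene UQCRC1 (7.6 at -44 bp). Complex I had 9 of 46 genes (19.6%, 9.36% to 33.9%), all in this list alone, led by NDUFB5 (11.2 at -16 bp) and NDUFV3 (10.6 at -72 bp). Mitochondrial ribosomal proteins had 17 of 78 (21.8%, 13.2% to 32.6%), led by MRPL24 (11.2 at -63 bp) and MRPS16 (10.1 at -9 bp). Mitochondrial import had 5 of 26 genes (19.2%, 6.55% to 39.4%), all in this list alone: TIMM17A (11.2), TIMMDC1 (9.13), TOMM22 (8.62), TIMM50 (7.6) and TOMM5 (6.59). Glycolysis had 4 of 24 (16.7%, 4.74% to 37.4%), which were PGK1, PKM (8.11 at -65 bp), PGAM1 (7.1 at -8 bp) and PKLR (7.1 at -128 bp), and 3 with a common promoter peak.

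Lipid genes had the highest share of any class, with an interval that overlapped those of the classes next in order. Of 32 genes of cholesterol and fatty acid synthesis and of SREBP control, 10 had an NR2E3-depleted-specific promoter peak (31.2%, 16.1% to 50%), 11 a common and 0 a control-specific one. SQLE, which encodes the squalene epoxidase step, had a score of 10.6 at -20 bp, SREBF2 had 10.6 at -200 bp, and SCAP, the sterol-sensing escort of SREBP, had 10.1 at 0 bp. DHCR7, of the last step of cholesterol synthesis, had 9.63 at -99 bp. FASN, the fatty acid synthase, had 2 peaks of 7.6, at -17 and -621 bp, and SREBF1 had 6.08 at -166 bp. Peaks of ACACB (6.59 at -648 bp) and INSIG2 (6.59 at -934 bp, also with a common promoter peak) lay in the flank.

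Among classes of genes typical of liver, shares ran from 7.14% to 12.5%. Plasma protein genes of hepatocytes had 6 of 70 (8.57%, 3.21% to 17.7%), against 18 with a common and 7 with a control-specific promoter peak. These 6 were the complement genes C8A (10.1) and C5 (5.58), the kininogen gene KNG1 (8.62), SERPIND1 (7.1), F5 (5.58) and F2 (6.08, also common). Cytochrome P450 genes had 4 of 56 (7.14%, 1.98% to 17.3%) and no common or control-specific promoter peak: CYP3A43 (8.62 at -664 bp), CYP19A1 (7.1 at -525 bp), CYP2R1 (6.08 at -132 bp) and CYP27A1 (5.58 at 10 bp). Of the conjugating enzymes, SULT1C4 and SULT2A1 (7.6 each) and SULT2B1 (5.58) had a peak, 3 of 32 genes (9.38%, 1.98% to 25%). Of 24 markers of liver cancer and stem-like cells, SOX4 (8.11 at -44 bp), LGR5 (7.1 at -695 bp) and LIN28B (7.1 at -930 bp) had one (12.5%, 2.66% to 32.4%). The intervals of all 4 groups include the 12% of all genes.

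Among classes of protein turnover and traffic, shares ran from 4.17% to 26%, with intervals that all overlap. Proteasome genes had 13 of 50 (26%, 14.6% to 40.3%), with PSMD4 (9.63), PSMD11 and PSMD2 (9.13 each) and PSMB2 (8.11) in this list alone. The class takes in PSMC3IP, a recombination factor that is named after a proteasome subunit. Ubiquitin-conjugating enzymes had 9 of 36 (25%, 12.1% to 42.2%), led by UBE2M (12.2 at -275 bp), the conjugating enzyme of NEDD8, and UBE2N (9.63). Cullins and the anaphase-promoting complex had 5 of 23 (21.7%, 7.46% to 43.7%), led by CDC23 (11.7 at -163 bp). Traffic genes of the VPS, SEC, COP and exocyst groups had 26 of 132 (19.7%, 13.3% to 27.5%), of which 25 were in this list alone, and 18.9% had a common promoter peak. EXOC8 (10.6) and TRAPPC12 (10.1) had the highest scores of these. Ubiquitin-specific proteases had 10 of 76 (13.2%, 6.49% to 22.9%), RAB GTPases and their partners 9 of 74 (12.2%, 5.71% to 21.8%), and V-ATPase subunits 1 of 24 (4.17%, 0.105% to 21.1%). Autophagy had 7 of 33 genes (21.2%, 8.98% to 38.9%), all in this list alone, among them GABARAPL1 (10.1 at -352 bp), ATG5 (9.63 at 15 bp) and ATG7 (6.08 at -140 bp). Solute carriers had 62 of 398 (15.6%, 12.2% to 19.5%) and 10.6% with a common promoter peak, led by SLC25A28 (15.7) and the thiamine transporter gene SLC19A2 (12.7 at -60 bp). Common promoter peaks were at 46% of proteasome genes, 25% of ubiquitin-conjugating enzymes and 39.1% of cullins and the anaphase-promoting complex. For ubiquitin-specific proteases, RAB GTPases, V-ATPase subunits and autophagy genes the common shares were 23.7%, 24.3%, 29.2% and 24.2%.

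Among genes of transcription, RNA and chromatin, SWI/SNF and CHD remodellers had 9 of 34 (26.5%, 12.9% to 44.4%). SMARCC1 (10.6 at -63 bp), ACTL6A (10.1 at -128 bp) and CHD1L (9.13 at -113 bp) led them, and ARID1A (5.58 at -422 bp) and ARID1B (6.59 at -739 bp) had weaker peaks farther from the TSS. Splicing genes had 15 of 61 (24.6%, 14.5% to 37.3%), with PRPF18 (11.7), SRSF4 (11.2) and U2AF2 (10.6) highest. RNA polymerase subunits had 8 of 33 (24.2%, 11.1% to 42.3%), all in this list alone, led by POLR1C (13.2 at -17 bp). Histone acetyltransferases, deacetylases and coregulators had 8 of 37 (21.6%, 9.83% to 38.2%). Among them were HDAC1 (9.63 at -145 bp), SIRT6 (9.63 at -68 bp) and CREBBP (6.08 at -141 bp), the gene of the acetyltransferase CBP. EP300, its paralog, had no peak. Zinc finger genes of the ZNF series had 85 of 517 (16.4%, 13.3% to 19.9%), led by ZNF433 (11.2 at 31 bp). Ribosomal protein genes had 16 of 87 (18.4%, 10.9% to 28.1%), all in this list alone, against 38 with a common promoter peak. General transcription factors had 3 of 57 (5.26%, 1.10% to 14.6%), which were TAF3, TAF1D and TAF1. The hnRNP genes had 3 of 26 (11.5%, 2.45% to 30.2%), against 13 with a common promoter peak.

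**Figure D5:**
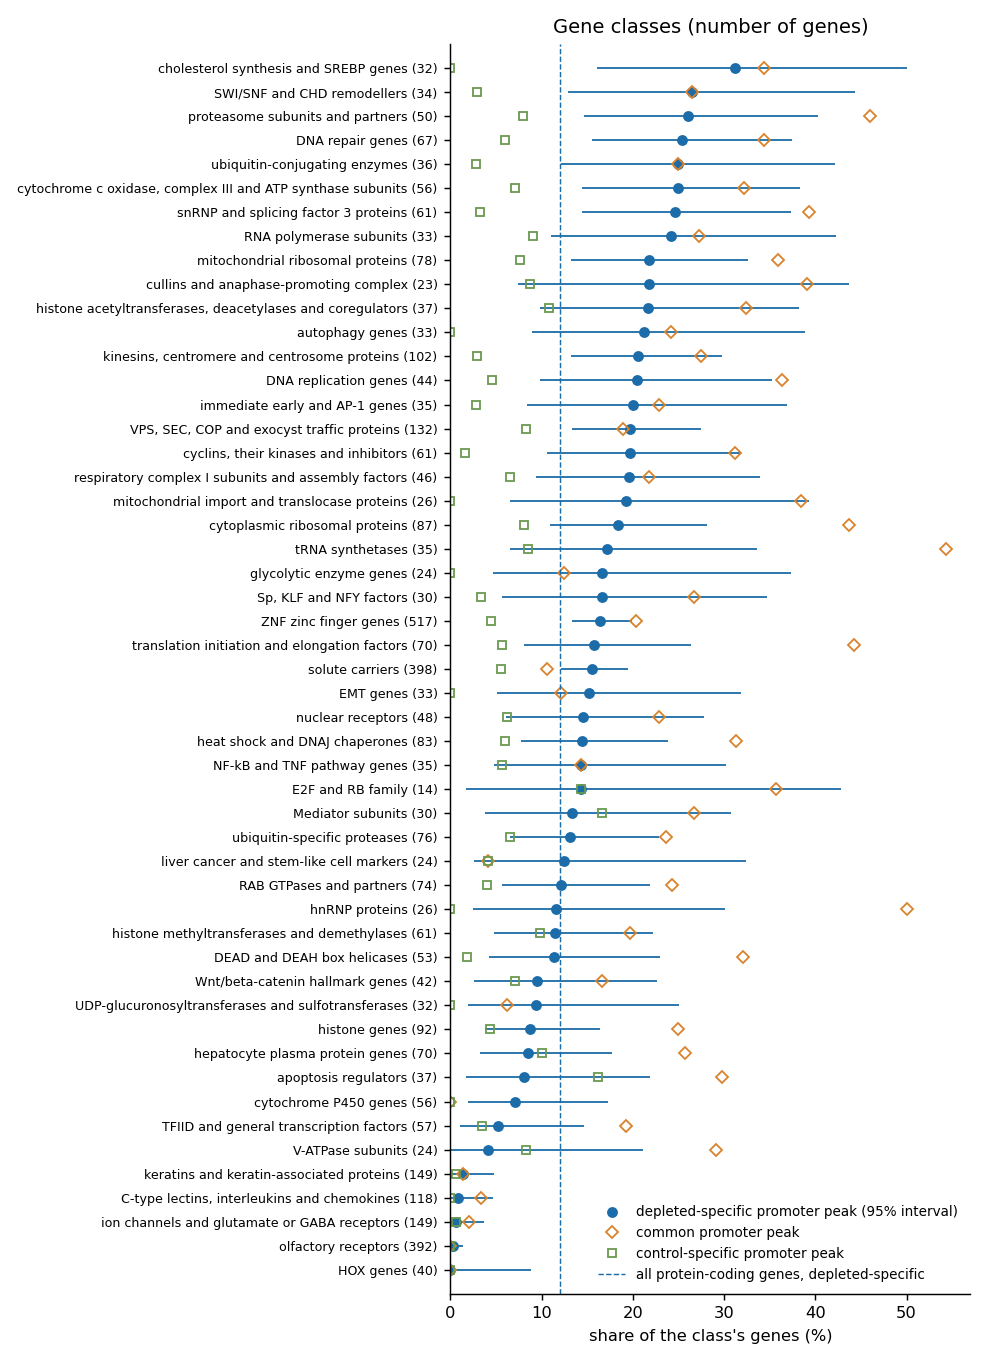
The share of each class's genes (x, %) with an NR2E3-depleted-specific (filled circles, with 95% exact binomial intervals), common (diamonds) or control-specific (squares) promoter peak is plotted for 51 of the 52 gene classes (y, number of genes in parentheses), and the dashed line is the 12% of all protein-coding genes. Lipid synthesis genes are at the top with 31.2%, and HOX genes, olfactory receptors, ion channels, cytokines and keratins are at the bottom, at 1.34% or less.

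For classes of the genome and of cell division, shares ran from 14.3% to 25.4%. DNA repair genes had 17 of 67 (25.4%, 15.5% to 37.5%), of which 16 were in this list alone. RNF168, a ubiquitin ligase at DNA breaks, had a score of 13.2 at 48 bp, the checkpoint kinase gene ATR 9.63 at -49 bp, and MUTYH, a glycosylase gene, 8.62 at 55 bp. Replication genes had 9 of 44 (20.5%, 9.80% to 35.3%), all in this list alone, led by ORC1 (12.2 at -64 bp) and MCM7 (9.63 at 69 bp). Kinesin, centromere and centrosome genes had 21 of 102 (20.6%, 13.2% to 29.7%), with KIF11 (14.7) above CEP128 (9.63) and CENPL (9.13). Cyclins, their kinases and inhibitors had 12 of 61 (19.7%, 10.6% to 31.8%), among them CDK12 (11.7 at -58 bp), CCNB1 (11.2 at 37 bp) and CCNB2 (8.62 at -61 bp). The E2F and RB family had 2 of 14 (14.3%, 1.78% to 42.8%), RB1 (7.6 at 32 bp) and RBL2 (6.08, also control-specific). The intervals of replication genes, cyclins and the E2F and RB family include the 12% of all genes. In each class of this paragraph the common share was higher, at 34.3%, 36.4%, 27.5%, 31.1% and 35.7% in the order given.

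Classes of signalling genes and of regulatory factors all had intervals that include the 12% of all genes. The Wnt/beta-catenin list had 4 of 42 (9.52%, 2.66% to 22.6%), which were JAG1, SKP2 (9.63 at -48 bp), the casein kinase gene CSNK1E (9.13 at -395 bp) and HDAC5 (5.58 at -397 bp). Of other genes looked up by name, PPARD, SP1 and NFYA had a promoter peak in the common list only, and MYC in the control-specific list only. Outside promoters, PPARD, SP1 and NFYA also had 5, 1 and 1 NR2E3-depleted-specific peaks. CTNNB1, KLF3 and EGFR had peaks outside promoters only. NFYB had no peak. Nuclear receptors had 7 of 48 (14.6%, 6.07% to 27.8%), all in this list alone, with NR1D2, a repressor of the circadian clock, and NR5A2, a receptor of bile acid synthesis genes, at 8.62 each and HNF4G at 7.6. Immediate early genes had 7 of 35 (20%, 8.44% to 36.9%), with MAFF (12.2 at 18 bp) highest. Sp, KLF and NFY factors had 5 of 30, which were NFYC (9.63), SP3 (8.62 at -987 bp), KLF5 and SP6 (8.11 each) and KLF10 (2 peaks, of 8.11 and 7.1). The NF-kB list had 5 of 35, with TAB1, TAB2 and TAB3 at 6.59 each, and the list of mesenchymal transition had 5 of 33. Apoptosis regulators had 3 of 37, among them BIRC5 (8.62 at -39 bp), the gene of survivin.

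Genes of restricted tissues were nearly absent. The list held 0 of 40 HOX genes (an upper bound of 8.81%), 1 of 392 olfactory receptors (OR1F1, 6.59), 1 of 149 ion channel and receptor genes (KCNJ16, 5.58), 1 of 118 cytokine and lectin genes (IL32, 6.59) and 2 of 149 keratin genes (KRT8 and KRTAP4-11). Common promoter peaks were as rare there, with 0, 0, 3, 4 and 2 genes.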

How the data were processed

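FAIRE-seq was measured in 1 control and 1 NR2E3-depleted HepG2 library. Per the submitters' processing notes, bcl2fastq 2.17, Trimmomatic 0.39, Bowtie2 2.4.5 and SAMtools 1.14 were used with hg38, and the authors called and annotated peaks with HOMER. They deposited peak lists with a peak score (a scaled tag number), a position, an annotation class, a distance to the TSS and a nearest gene. The rule that separated common from specific peaks is not given in the sources used here, nor is any input or copy number correction. The members and gene lists were chosen with earlier results of these data known, and some class patterns and the date symbols below were corrected after values were seen.

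Scores were divided by the step of each list (listed scores are whole multiples within 0.005 for 100% of peaks under 10) to give tags. A gene was in the list alone when its symbol had no promoter-TSS row in the common or control-specific list. Symbols were matched to RefSeq (GRCh38.p14), where 2397 of 2408 matched, 53 through older symbols or accessions. A further 3, listed as dates, were named by their accession. The sequence of the first 300 bases of each peak came from hg38, same-length promoters from RefSeq (1 per gene, 15811 genes) and opposite-strand TSSs from GENCODE 44. Shares carry exact Clopper-Pearson intervals and tags Poisson intervals. Intervals of differences combine the Clopper-Pearson limits of the 2 shares by Newcombe's formula. All these intervals treat peaks as independent although peaks cluster. The genes named were the 10 highest scores in the list alone, the 5 highest with each other list, genes with at least 3 peaks, up to 5 highest per class or every gene of small classes, a set of genes (NR2E3, JAG1, PPARD, SP1, MYC, CTNNB1, EP300, KLF3, NFYA, NFYB, NFYC and EGFR, among others) and those at the class edges. OGT, SUV39H1, TAF1, TFE3, PSMC3IP and some class members outside the top 5 were named after their values were seen. The windows printed were chosen as examples in the same way. Some genes that meet this rule are not reported here. Calculations were tested on simulated data. The tools were scipy 1.17.1, pandas 2.3.3 and numpy 2.4.6 under Python 3.11.15, with plots by matplotlib 3.10.9.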

Additional observations from a re-analysis of the deposited data

How the results depend on the processing

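Of 28 alternatives, 17 were taken as unchanged and 11 moved the value outside its interval. Unchanged means within the interval or, for the count of gene classes, which has no interval, near the main count (37 and 34 against 36). Of the differences between groups, 0 changed sign, and shares, scores and counts could not. The share of genes in the list alone (89.6%) was 93.2% when promoters were named by TSS accession, 86.0% when any common or control-specific peak within 1000 bp also counted, 92.5% for peaks within 500 bp of the TSS and 94.97% without chromosomes 2, 6, 14, 16, 17 and 20. Without these chromosomes the CpG-rich share was 82.6%, its difference between genes in the list alone and genes with another promoter peak fell to 23.6 points, and the CCAAT difference from common promoter peaks was -12.3 points. The CpG-rich share was 60.4% under the stricter definition (at least 55% GC and a ratio of at least 0.75). The opposite-strand share was 11.9% within 500 bp and 34.4% for genes of any type. In the central 100 bp the GC box difference between genes in the list alone and common promoter peaks was 6.28 points. The causes were not tested. No paired analysis was possible because there was a single library per group, and for the same reason no library could be left out. Depth limits single peaks, since at the median of 14 tags a peak's interval is 7.65 to 23.5 tags. Whether a promoter missing from the control lists lay just under the calling threshold there was not tested. The level of a common peak in NR2E3-depleted cells was not analysed here.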
